A study of Mus musculus with 46 samples.

Results

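The receptors that bind the constant (Fc) part of immunoglobulin G (IgG) were followed as 6 genes. They were the activating receptors Fcgr1, Fcgr3 and Fcgr4, the inhibitory receptor Fcgr2b, the signalling chain gene Fcer1g, and Fcgrt, the gene of the neonatal Fc receptor. The 6 were chosen by name from a table of read counts for 54134 gene symbols. All 6 were in that table, and all 6 were among the 12121 genes that passed the filter on low counts and were tested.

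RNA came from microglia, the macrophages that live in the brain, in 46 libraries. Of these, 22 came from wild-type mice (WT) and 24 from 5xFAD mice, which the labels call AD and in which mutant human amyloid precursor protein and presenilin are expressed from a neuronal promoter and amyloid plaques form. The 3 diets were free of fiber (zero fiber), a control, and one containing HAMSAB, a digestion-resistant starch to which acetate and butyrate are attached. Each combination of diet and genotype had 8 libraries, 4 per sex, except zero fiber WT, which had 6 (4 female, 2 male). The labels leave out age, strain, feeding time and the method of isolation, and they do not state that every library is a separate mouse, so the p-values below measure only the spread between these libraries. A library is named by diet, genotype, sex and a replicate number that pairs nothing.

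Fc gamma receptors let a phagocyte recognise and take up material coated with IgG. Fcgr1 encodes the receptor of high affinity, and Fcgr3 and Fcgr4 encode activating receptors of lower affinity. All of these rest on the Fc receptor gamma chain encoded by Fcer1g, whose cytoplasmic activation motif is phosphorylated by Src family kinases and then recruits the kinase Syk. Fcgr2b carries an inhibitory motif in its own tail and recruits the lipid phosphatase encoded by Inpp5d, so that the balance of activating and inhibitory receptors sets the threshold of the response. Fcgrt works differently: its product pairs with beta-2 microglobulin, binds IgG in acidic endosomes and returns it to the surface, away from the lysosome. In microglia the family is best known for the uptake of antibody-bound amyloid.

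In the GENCODE annotation (release M21, build GRCm38), 4 of the 6 genes lie within 275749 bases of chromosome 1: Fcgr2b at chr1:170958617-170976547 on the minus strand, Fcgr4 at chr1:171018920-171029761 on the plus strand, Fcgr3 at chr1:171051174-171064935 on the minus strand and Fcer1g at chr1:171229572-171234365 on the minus strand. Fcgr1 lies at chr3:96282909-96293969 and Fcgrt at chr7:45092990-45103851, both on the minus strand. Fcgr2b and Fcgr3 are the members whose transcripts hold identical stretches, so that their counts could be exchanged. Of all runs of 75 bases in the longest coding Fcgr3 transcript, 7.38% were also found in any Fcgr2b transcript, and of runs of 50 bases 12.8% (both strands searched). Of the 50-base runs of Fcgr2b, 12.5% were also found in other genes, and 4.75% in Fcgr3. In all, 144 genes outside the family shared such runs with Fcgr2b. Fcgr1, Fcgr4, Fcer1g and Fcgrt shared 0% of such runs with any other gene. The longest identical stretch is shown because a read inside it cannot be assigned to either gene. It has 129 bases, all coding, and spans the junction of exons 3 and 4 in both genes (Fcgr2b from chr1:170966674 to 170968081, Fcgr3 from chr1:171054167 to 171057792, GRCm38, minus strand, introns left out):
Fcgr2b and Fcgr3: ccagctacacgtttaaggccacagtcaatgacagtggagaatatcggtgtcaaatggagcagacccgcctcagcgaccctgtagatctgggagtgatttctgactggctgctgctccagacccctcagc
No source used here says how reads that match both genes were counted. An annotated antisense transcript, Gm38204, shares 155 exon bases with Fcgr2b, and its mean was 0.463 CPM or less in each of the 6 diet and genotype groups. CPM denotes the normalised read count, scaled by library total and edgeR's TMM factors.

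Promoter windows for all 6 genes were read from RefSeq (GRCm38.p6; 250 bases before to 50 after each start). The 250 bases before the start are shown for Fcgr1 and Fcgr4, the members with the largest differences between diets below and the ones that hold a match to an interferon-linked motif. Capitals mark matches to GAGGAA (the core recognised by PU.1, the lineage factor of macrophages and microglia), to TTCNNNGAA (the gamma-activated site of interferon responses, here a palindrome found on both strands) and to GAAANNGAAA (the interferon-stimulated response element), searched on both strands:
Fcgr1, chr3:96293970-96294219, minus strand: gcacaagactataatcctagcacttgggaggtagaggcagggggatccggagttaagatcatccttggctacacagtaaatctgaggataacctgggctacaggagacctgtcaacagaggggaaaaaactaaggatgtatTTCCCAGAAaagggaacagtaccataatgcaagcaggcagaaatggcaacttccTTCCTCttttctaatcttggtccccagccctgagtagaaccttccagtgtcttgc
Fcgr4, chr1:171018676-171018925, plus strand: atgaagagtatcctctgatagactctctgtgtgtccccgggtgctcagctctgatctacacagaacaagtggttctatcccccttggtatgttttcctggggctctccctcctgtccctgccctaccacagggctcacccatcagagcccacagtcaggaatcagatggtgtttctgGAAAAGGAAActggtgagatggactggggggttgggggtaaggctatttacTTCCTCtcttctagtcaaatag
In Fcgr1 the capitals lie at -109 to -101 (TTCNNNGAA) and -55 to -50 (GAGGAA on the other strand), counted from the base before the start as -1. In Fcgr4 they lie at -73 to -64 (GAAANNGAAA) and -22 to -17 (GAGGAA on the other strand). Both annotated starts of Fcgr3 also hold GAGGAA within 15 bases, while the windows of Fcgr2b, Fcer1g and Fcgrt matched none of the 3 motifs. Over all 32851 RefSeq windows of this length, 28.3% matched GAGGAA, 8.30% TTCNNNGAA and 3.44% GAAANNGAAA, so GAGGAA is common and the interferon-linked motifs less so. The matches describe the letters only.

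The libraries held 52114 to 6950429 counts, with a median of 2344837.5. The shallowest was zero_fiber_AD_M replicate 2, in which Fcgr4 rested on 3 reads. The library labelled zero_fiber_AD_F replicate 1 went against its sex label, with 0.213 CPM of Xist against 842 to 935 CPM in the other 3 of its group, and 142 CPM of the Y-linked Ddx3y, and values without these 2 doubted libraries are given beside the main differences that involve zero fiber AD. Microglial markers were abundant in every library (P2ry12 at 3647 to 7283 CPM, Cx3cr1 at 4914 to 9720 CPM). Markers of other cells that carry Fc gamma receptors were present at lower levels. Perivascular macrophage markers (9 genes) summed to 160.3 to 464 CPM, of which Stab1 averaged 201 CPM and Mrc1 27.5 CPM, above the 18 CPM of Fcgr4. Monocyte markers (6 genes) summed to 0 to 23.2 CPM, with Ccr2 at 4.84 and Plac8 at 3.93 CPM on average, and neutrophil markers (6 genes) to 0 to 20.2 CPM, with Ly6g at 0 in all 46 libraries. Their part in the receptor levels was not tested. In bulk RNA, fewer expressing cells and less RNA per cell cannot be told apart.

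Per length of exon, the order of the family was Fcer1g (1843 ± 284 CPM per kb, SD, n = 46 libraries), Fcgr3 (775 ± 106), Fcgr1 (143 ± 25.9), Fcgrt (62.5 ± 10.8), Fcgr2b (50.5 ± 6.73) and Fcgr4 (14.3 ± 6.15). The steps from Fcer1g to Fcgr3, Fcgr3 to Fcgr1, Fcgr1 to Fcgrt and Fcgr2b to Fcgr4 held in all 46 libraries. Fcgrt and Fcgr2b could not be ordered: Fcgrt stood above Fcgr2b in 39 of 46 libraries when all exons were counted as length, and Fcgr2b above Fcgrt in 30 of 46 when the longest coding transcript was used (82.4 against 74.3 CPM per kb). By CPM, Fcer1g ranked 46 and Fcgr3 ranked 55 among the 12121 tested genes, while Fcgr4 ranked 7099.

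**Figure D1:**
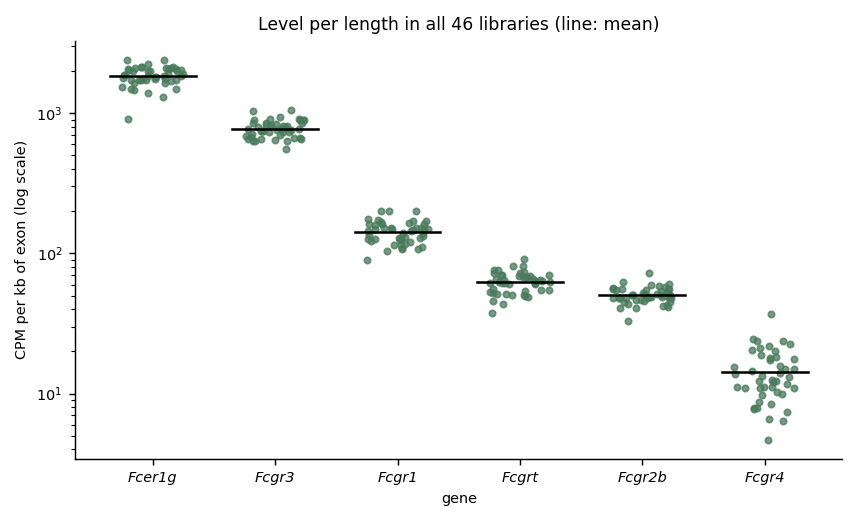
Level of each gene in CPM per kilobase of exon (log scale), with 1 point per library (46) and a line at the mean. Fcer1g and Fcgr3 form the upper end, Fcgr4 the lower end, and the points of Fcgrt and Fcgr2b overlap.

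The levels of the activating receptors by group, in CPM, were as follows. Fcgr3 had medians of 1350 (range 1187 to 1816) in zero fiber WT, 1251 (1099 to 1564) in control WT and 1325 (1123 to 1621) in HAMSAB WT. In AD mice its medians were 1211 (958 to 1464) on zero fiber, 1379 (1129 to 1568) on control and 1469 (1220 to 1790) on HAMSAB. The 6 ranges overlapped throughout, and the highest group mean was 1.20 times the lowest.

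Fcgr1 had medians of 308 (279 to 519), 417 (297 to 523) and 333 (233 to 446) CPM in WT mice on zero fiber, control and HAMSAB. In AD mice the medians were 340 (278 to 435), 404 (329 to 515) and 377 (310 to 392) CPM. The control diet had the highest median in both genotypes, and each control group overlapped the other diets.

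Fcgr4 was the least abundant and the most variable of the 6, with a coefficient of variation of 43% over the 46 libraries against 13.3% to 18.2% in the others, and with 3 to 164 reads per library (median 38). In WT mice its medians were 12 CPM (5.91 to 25.1) on zero fiber, 14.4 (9.26 to 26.5) on control and 22.3 (10.5 to 29.8) on HAMSAB. In AD mice they were 15.7 (9.90 to 46.4) on zero fiber, 14 (9.96 to 18.3) on control and 19.1 (8.32 to 30.6) on HAMSAB. The value of 46.4 CPM belonged to the shallowest library, where 3 reads allow 9.56 to 135 CPM (exact 95% Poisson interval, counting error only), and the next highest value of that group was 27.6 CPM. HAMSAB had the highest median in each genotype, but HAMSAB_WT_F replicate 4 (10.5 CPM) lay within the range of the other WT diets and HAMSAB_AD_F replicate 3 (8.32 CPM) below every library of the other AD diets.

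The inhibitory receptor Fcgr2b was the steadiest member. Its group medians lay between 282 and 306 CPM, the lowest library was HAMSAB_WT_F replicate 1 (190 CPM) and the highest HAMSAB_AD_F replicate 1 (419 CPM). The highest group mean was 1.09 times the lowest. Fcer1g, the shared signalling chain, had group medians between 1536 and 1764 CPM and Fcgrt between 124 and 138 CPM, with overlapping ranges in both genes. Of 54 pairs of groups compared across the 6 genes, 0 were free of overlap. The same count was not made over all tested genes, so it describes these 6 and marks nothing particular to them.

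**Figure D2:**
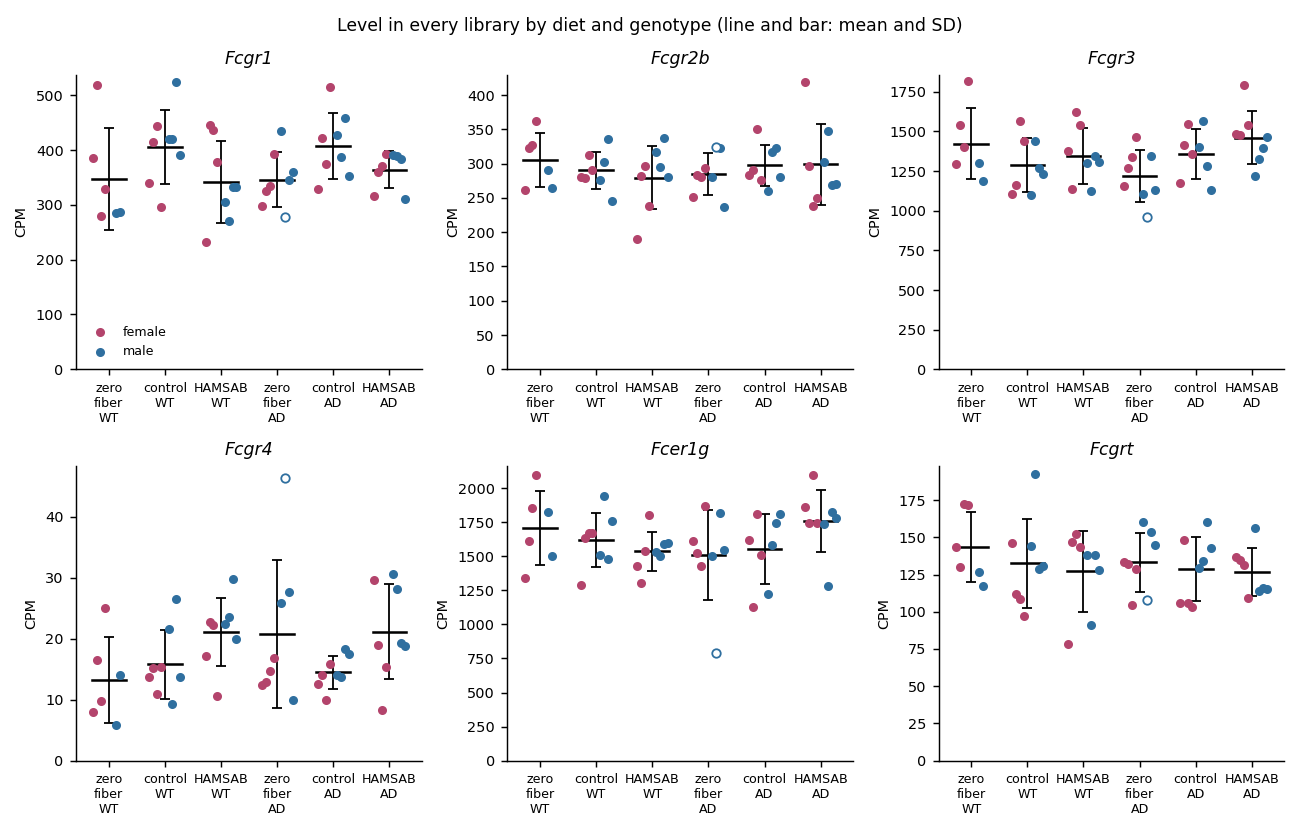
CPM of the 6 genes in every library, by diet and genotype, with females and males in separate colours, the open circle marking the library of lowest depth and black lines and bars giving the mean and SD (n = 8 per group, 6 in zero fiber WT). The groups overlap in all 6 panels, and the Fcgr4 means of HAMSAB AD and HAMSAB WT (21.1 CPM each) stand above the others, with 20.8 CPM in zero fiber AD next.

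The comparisons below were contrasts of a single edgeR quasi-likelihood model of the 46 libraries, whose 12 means stand for diet, genotype and sex, and sexes were averaged. A call required p under 0.05 after Benjamini-Hochberg adjustment across all 12121 genes. Fold changes are log2 values, each with its standard error (SE) from the model. Over 17 comparisons of the 6 genes, that is 102 tests, 0 were called, and 0 were called by DESeq2 or by limma voom in the same comparisons. The median of the 6 log2 fold changes lay between -0.06 and 0.14 over the comparisons, and that of all tested genes between -0.01 and 0.01. At an unadjusted p under 0.05 edgeR had 11 of the 102, where single comparisons had 4.70% to 21.98% of all genes, and the lowest adjusted p was 0.0637 (0.0562 with DESeq2 and 0.0800 with voom), in each case for Fcgr4.

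Diets were first compared within WT mice, to ask how the fiber in the diet relates to microglial expression without the transgenes. Between HAMSAB and zero fiber 0 of the 6 genes were called, where 2.19% of all tested genes were. Fcgr4 averaged 21.1 ± 5.55 CPM (SD, n = 8) on HAMSAB and 13.2 ± 7.01 CPM (n = 6) on zero fiber. Its log2 fold change was 0.78 ± 0.26 (SE; 95% interval 0.25 to 1.30; edgeR unadjusted p = 0.00471, adjusted p = 0.129). In differences of mean log2 CPM, it was 1.09 among libraries whose title number is below 2900 (5 and 4 libraries) and 0.08 among those at 2900 or above (3 and 2). The labels do not say what the title numbers are. Differences within title series, here and below, were of plain means in which the sexes were not averaged as in the model. The mix of sexes differed between series and groups. Without zero_fiber_WT_F replicate 4, which had the highest Fcgr4 of its group, the gene was called (edgeR adjusted p = 0.0458, 0.97 ± 0.26), and without zero_fiber_WT_M replicate 1 it was not (adjusted p = 0.525). Without the filter on low counts it was called (edgeR adjusted p = 0.0111). The other 5 genes differed by -0.14 to 0.05.

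Between HAMSAB and control in WT mice 0 of 6 genes were called, against 0.281% of all genes. Fcgr1 stood lower on HAMSAB by -0.25 ± 0.12 (SE; adjusted p = 0.341), at 342 ± 75.4 against 406 ± 67.6 CPM (SD, n = 8 each), and Fcgr4 higher by 0.40 ± 0.22 (adjusted p = 0.453). Between zero fiber and control in WT mice 0 of 6 were called, against 0.00825% of all genes. Fcgr1 differed by -0.30 ± 0.13 (adjusted p = 0.574), at 347 ± 93.4 CPM on zero fiber, and Fcgr4 by -0.38 ± 0.26 (adjusted p = 0.773). The Fcgr1 difference between zero fiber and control WT mice was -0.44 in the upper title series (2 and 7 libraries) and 0.07 in the lower, where control had 1 library.

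In AD mice, 0 of 6 genes were called between HAMSAB and zero fiber, against 0.239% of all genes. Fcgr3, the low-affinity activating receptor, averaged 1461 ± 168 CPM on HAMSAB and 1220 ± 163 CPM on zero fiber (SD, n = 8 each), a log2 fold change of 0.25 ± 0.09 (SE; edgeR unadjusted p = 0.0101, adjusted p = 0.300). It was 0.28 and 0.33 within the lower and upper title series and 0.20 ± 0.10 in the fit without the 2 doubted libraries (adjusted p = 0.478). Fcer1g stood at 1760 ± 227 against 1512 ± 331 CPM (0.20 ± 0.12; adjusted p = 0.562), and at 0.13 ± 0.11 without the doubted libraries. Both receptor and chain were higher on HAMSAB in this comparison without passing the test.

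Between HAMSAB and control in AD mice 0 of 6 genes were called, against 0.0743% of all genes. Fcgr4 averaged 21.1 ± 7.78 CPM on HAMSAB and 14.5 ± 2.68 CPM on control (SD, n = 8 each). It differed by 0.56 ± 0.22 (SE; edgeR unadjusted p = 0.0157, adjusted p = 0.211). The difference of mean log2 CPM changed sign between title series, at 0.83 in the lower (5 and 4 libraries) and -0.24 in the upper (2 and 4). The upper HAMSAB libraries were all labelled female and the lower ones mostly male, so the series differ here in sex as well. Between zero fiber and control in AD mice 0 of 6 were called, against 0.0578% of all genes, with Fcgr1 at -0.21 ± 0.12 (adjusted p = 0.515), by -0.22 and -0.26 within the title series, and at -0.17 ± 0.13 without the doubted libraries.

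Averaging the genotypes gave the diet comparisons their most libraries. Between HAMSAB and control 0 of 6 genes were called, where 4.52% of all genes were. Fcgr4 came nearest to the threshold. It averaged 21.1 ± 6.53 CPM in 16 HAMSAB libraries and 15.1 ± 4.33 CPM in 16 control libraries, with a log2 fold change of 0.48 ± 0.16 (SE; 95% interval 0.16 to 0.80; edgeR unadjusted p = 0.00387, adjusted p = 0.0637). In the lower title series the difference of mean log2 CPM was 0.77 (10 and 5 libraries) and in the upper -0.02 (5 and 11), so it was not seen in the upper series. The upper HAMSAB libraries were mostly female and the lower ones mostly male, so the series differ here in sex as well. In fits that left out 1 library the fold change ran from 0.40 to 0.55, and the gene was called without HAMSAB_AD_F replicate 3, HAMSAB_WT_F replicate 4, HAMSAB_WT_M replicate 4 or control_WT_M replicate 3 (edgeR adjusted p = 0.0355, 0.0498, 0.0477 and 0.0407). It was also called without the filter on low counts (adjusted p = 0.00671) and when only the libraries compared were fitted (0.0370). Fcgr1 stood lower on HAMSAB by -0.21 ± 0.08 (edgeR adjusted p = 0.128), at 353 ± 57.4 against 407 ± 61.9 CPM, and by -0.19 and -0.15 within the lower and upper title series.

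HAMSAB against zero fiber, averaged over genotypes, called 0 of 6 genes and 1.02% of all genes. Fcgr4 differed by 0.52 ± 0.17 (SE; edgeR unadjusted p = 0.00447, adjusted p = 0.148, and 0.0102 without the filter on low counts) and by 0.52 ± 0.18 without the doubted libraries. Within the lower and upper title series the differences of mean log2 CPM were 0.53 and 0.08. Summed markers of perivascular macrophages, another source of Fc receptors, had medians of 245 and 198 CPM in HAMSAB WT and AD and 266 and 257 CPM in zero fiber WT and AD (9 markers). Of these, only Mrc1, the mannose receptor, was called, and it fell from 35.5 ± 12.1 to 18.5 ± 8.59 CPM (edgeR adjusted p = 0.0392). That call was not checked in the fits that left out 1 library. Stab1, at 201 CPM on average over all libraries, made up most of the sum. On HAMSAB the 9 markers summed to 188 to 258 CPM in WT and 170 to 222 CPM in AD libraries. On zero fiber they summed to 213 to 322 and 183 to 464 CPM, so the diets overlapped in both genotypes. The summed markers of monocytes (6 genes), which carry Fcgr4, had medians of 7.52 and 10.4 CPM on HAMSAB and 9.40 and 8.31 CPM on zero fiber in WT and AD. The part of either cell type in the Fcgr4 value was not tested.

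Zero fiber against control, averaged over genotypes, called 0 of 6 genes and 0.363% of all genes. Fcgr1, the high-affinity receptor, averaged 347 ± 68.8 CPM (SD, n = 14) on zero fiber and 407 ± 61.9 CPM (n = 16) on control, with a log2 fold change of -0.26 ± 0.09 (SE; edgeR unadjusted p = 0.00612, adjusted p = 0.179). It was -0.13 and -0.31 in the lower and upper title series, and -0.23 ± 0.09 without the doubted libraries (adjusted p = 0.277). Erythroid transcripts, which come from blood, were higher on zero fiber in the same comparison. The 5 erythroid markers summed to medians of 121 and 132 CPM in zero fiber WT and AD and to 50.3 and 15.5 CPM on control, and Hbb-bs rose from 24.4 ± 22.9 to 138 ± 140 CPM (adjusted p = 0.00262). Their part in the Fcgr1 value was not tested.

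**Figure D3:**
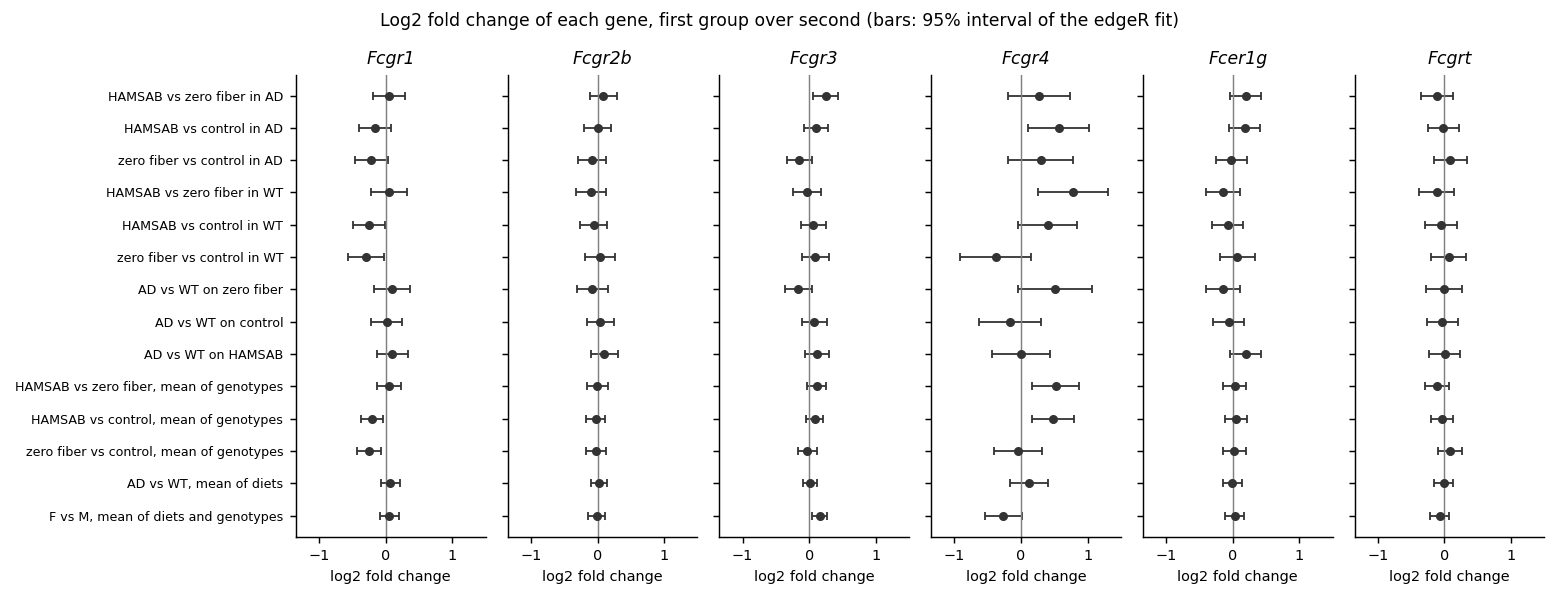
Log2 fold change of each gene (first group over second) in the 14 direct comparisons, as points with 95% intervals of the edgeR fit. Most intervals include 0, and Fcgr4 has the widest intervals and the largest values, 0.78 for HAMSAB against zero fiber in WT mice.

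AD mice were compared with WT mice on each diet to ask whether the receptors differ in the amyloid model. On control 0 of 6 genes and 0% of all genes were called, and on zero fiber 0 of 6 and 0.00825%. On the control diet the AD and WT means were 408 ± 60.2 and 406 ± 67.6 CPM for Fcgr1, 1359 ± 158 and 1289 ± 173 CPM for Fcgr3, 298 ± 29.97 and 290 ± 26.9 CPM for Fcgr2b, and 1555 ± 258 and 1619 ± 197 CPM for Fcer1g (SD, n = 8 each). The log2 fold changes of the 6 genes lay between -0.16 and 0.08 on control. The intervals allow a Fcgr1 difference of -0.22 to 0.25 and a Fcgr3 difference of -0.11 to 0.26, while that of Fcgr4 (-0.63 to 0.30) is wide. On zero fiber Fcgr4 stood at 0.51 ± 0.27 and Fcgr3 at -0.16 ± 0.10, and the other 4 genes lay between these values. Without the doubted libraries they were 0.51 ± 0.29 and -0.12 ± 0.11, and the zero fiber AD mean of Fcgr4 was 18 instead of 20.8 CPM. Leaving out 1 library moved the Fcgr4 value between 0.27 (without zero_fiber_WT_M replicate 1) and 0.90 (without zero_fiber_WT_M replicate 2). The Fcgr4 difference of mean log2 CPM was 1.24 in the lower and -0.23 in the upper title series. In the lower series the zero fiber AD libraries included both doubted ones, and in the upper the zero fiber WT libraries were all labelled female.

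On HAMSAB 0 of 6 genes were called between AD and WT mice, although 1.68% of all genes were. The log2 fold changes were 0.00 to 0.19, with Fcer1g the highest (1760 ± 227 against 1537 ± 145 CPM, 0.19 ± 0.12, edgeR adjusted p = 0.535) and Fcgr3 next (0.12 ± 0.09). Averaged over the diets, 0 of 6 and 0.0165% of all genes were called, and the values lay between -0.01 and 0.12.

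The difference of the AD effect between diets was tested as an interaction. For HAMSAB against zero fiber 0 of 6 genes were called, against 1.08% of all genes, with Fcgr3 at 0.28 ± 0.14 (SE; edgeR unadjusted p = 0.0481, adjusted p = 0.518) and Fcer1g at 0.34 ± 0.17 (adjusted p = 0.547). Without the doubted libraries these were 0.24 ± 0.14 and 0.28 ± 0.16. For HAMSAB against control and for zero fiber against control, 0 of 6 genes and 0% of all genes were called. The largest of those values was 0.67 ± 0.36 for Fcgr4 (zero fiber against control, adjusted p = 0.882), and 0.67 ± 0.37 without the doubted libraries.

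Females and males, as labelled, were compared over all diets and genotypes, with 0 of 6 genes and 0.124% of all genes called. Fcgr3 averaged 1417 ± 192 CPM in 24 female and 1269 ± 143 CPM in 22 male libraries (log2 fold change 0.16 ± 0.06, SE; edgeR unadjusted p = 0.00706, adjusted p = 0.271). Within title series the difference was 0.01 in the lower (9 and 14 libraries) and 0.26 in the upper (14 and 8). Fcgr4 stood lower in females, at 15.4 ± 5.34 against 20.8 ± 8.97 CPM (-0.26 ± 0.14, adjusted p = 0.517), by -0.42 and -0.19 within the series. The library that went against its sex label is counted here as female, and without the doubted libraries the values were 0.16 ± 0.06 for Fcgr3 (adjusted p = 0.206) and -0.24 ± 0.14 for Fcgr4 (adjusted p = 0.543).

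The 95% intervals give the largest change that the 14 direct comparisons leave possible for each gene. It was 1.25-fold for Fcgr2b, 1.30-fold for Fcgrt, 1.35-fold for Fcgr3 and Fcer1g, 1.48-fold for Fcgr1 and 2.47-fold for Fcgr4. The intervals are for single comparisons and were not widened for their number.

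Ratios within a library do not depend on its depth scaling. The count of Fcgr3 over that of the inhibitory Fcgr2b had group medians between 4.37 (HAMSAB WT) and 5.07 (HAMSAB AD), and Fcgr1 over Fcgr2b between 1.03 (zero fiber WT) and 1.45 (control WT). Fcgr4 over Fcgr2b lay between 0.0411 (zero fiber WT) and 0.0785 (HAMSAB WT). The 3 activating receptors summed over Fcgr2b had medians of 5.75 to 5.86 in 5 groups and of 6.44 in HAMSAB AD, where single libraries ran from 4.37 to 9.09. These are ratios of reads, not per length, and reads in the shared 129 bases above belong to both sides of the Fcgr3 ratio. Ratios of members were not tested.

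**Figure D4:**
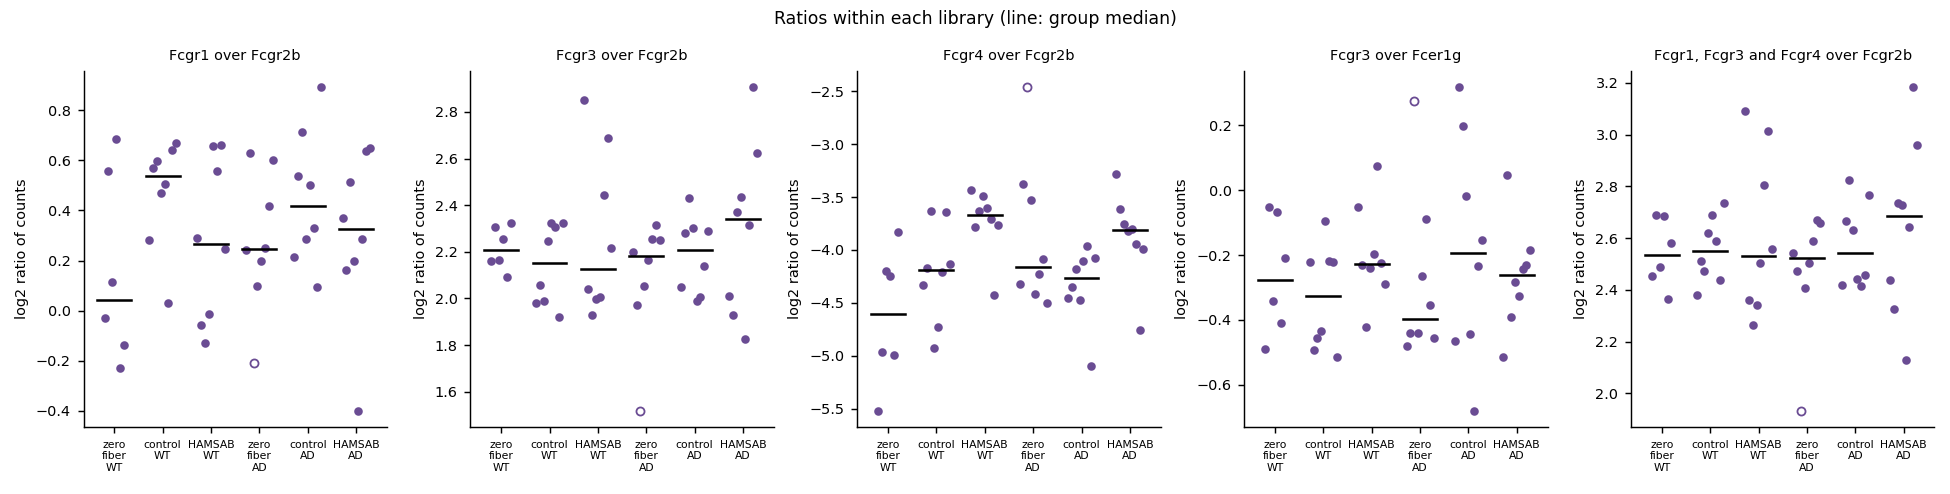
Log2 ratios of counts within each library (1 added to each count), by diet and genotype, with a line at the group median and an open circle for the library of lowest depth. The medians of the summed activating receptors over Fcgr2b differ little among 5 groups and are highest in HAMSAB AD, whose libraries spread most widely.

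Members were also compared with each other across the 45 libraries with over 500000 counts (15 pairs; permutation tests with 100000 resamples, two-sided, adjusted over the pairs). Fcgr3 and its signalling chain Fcer1g varied together, with r = 0.44 (adjusted p = 0.0367) and rho = 0.45 (adjusted p = 0.0292). Without the 2 libraries farthest from the median of Fcgr3 r was 0.29, and within the title series it was 0.20 (lower) and 0.58 (upper, 22 libraries each), so the relation rests in part on those libraries and on the upper series. Both genes also followed a library property given below, the slope of expression on exon length (r = -0.52 for Fcgr3 and -0.75 for Fcer1g). The part of that slope in the relation of the 2 genes was not tested. Fcgr2b and Fcgr4 had r = 0.40 (adjusted p = 0.0414) and rho = 0.41 (adjusted p = 0.0388), with 0.42 without the 2 farthest libraries and 0.44 and 0.37 within the series. The other 13 pairs did not pass. Fcgr2b and Fcgr3, which share sequence, had r = 0.21 (adjusted p = 0.451).

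Library properties moved with 2 members. A slope of each library's expression on exon length was computed over 11982 genes. Fcer1g, which with 874 exon bases is the shortest member, was high in libraries in which short transcripts were high (r = -0.75, adjusted p = 1.2e-04, rho = -0.73, adjusted p = 1.2e-04 over 12 relations, the smallest values these permutations can give). Leaving out the 2 farthest libraries gave -0.70, and the series gave -0.82 and -0.58. Fcgr3 (1736 exon bases) had r = -0.52 (adjusted p = 0.00156) and rho = -0.49 (adjusted p = 0.0039), -0.51 without the 2 farthest libraries and -0.22 and -0.66 within the series. The other members lay between -0.15 (Fcgrt) and 0.22 (Fcgr1) and did not pass. Among them Fcgr4, shorter than Fcgr3 with 1256 exon bases, had r = 0.10, so the members did not line up by length. The slope had its lowest group median, -0.030, in HAMSAB AD, the group where Fcer1g and Fcgr3 were highest, and the other medians lay between -0.008 and 0.012. Its part in the HAMSAB AD levels of these genes, and in their correlation with each other, was not tested. The total count passed with no member after adjustment, with Fcgrt nearest (r = -0.36, adjusted p = 0.059, rho = -0.33, adjusted p = 0.107).

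The genes most like each member in log2 CPM over those 45 libraries, among the 7391 genes whose log2 CPM averaged 4 or more, are given as a description. For Fcgr4 they were Icosl (r = 0.66), a costimulatory ligand, H2-DMb2 (0.64), a chain of the MHC class II peptide exchanger, and Axl (0.62), a receptor for apoptotic cells. With the 12 group means removed H2-DMb2 (0.70) and Icosl (0.68) were again the first of the list. Fcer1g was closest to Aif1 (0.85), which encodes the microglial marker Iba1, Pon3 (0.84) and Sec11c (0.83), a signal peptidase subunit. Fcgr1 was closest to Eef2 (0.77), the translation elongation factor, Mgat2 (0.72) and Rpl8 (0.71). Fcgr3 was closest to Lman2 (0.69), Serp1 (0.67) and Cndp2 (0.66), Fcgr2b to Herpud1 (0.58), Cd82 (0.58) and Tmem106a (0.56), and Fcgrt to Nosip (0.57), Lsp1 (0.54) and Mpdu1 (0.53). The libraries share group, depth and the length slope above, and no p is given.

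Signalling genes downstream of the receptors were followed as lists. Of the activating list (19 genes, 18 tested), 1 rose and 1 fell between HAMSAB and control averaged over genotypes, where 4.52% of all genes were called, at a median of -0.07 against 0.00 over all tested genes. Fgr, a Src family kinase that phosphorylates the activation motif, rose by 1.08 ± 0.25 (SE; adjusted p = 0.00995), with means of 2.16 ± 1.11 CPM on control and 4.66 ± 2.09 CPM on HAMSAB (SD, n = 16 each). Syk, the kinase that binds the phosphorylated motif, fell from 169 ± 22.7 to 136 ± 19.2 CPM (-0.32 ± 0.07; adjusted p = 0.00786). In the other 16 comparisons 0 of 18 were called. Tyrobp, an adaptor with the same kind of motif, was at 1097 to 2152 CPM and was not called.

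Of the inhibitory list (11 genes, 10 tested), Cbl, a ubiquitin ligase that turns off kinase signalling, fell on HAMSAB against control, from 336 ± 76.8 to 236 ± 32.2 CPM in WT mice (SD, n = 8 each; -0.51 ± 0.10, SE; edgeR adjusted p = 0.0286) and by -0.36 ± 0.07 over both genotypes (adjusted p = 0.00569). All 10 had negative values in the comparison over both genotypes, at a median of -0.15, with 1 called against 4.52% of all genes. Ptpn6, the phosphatase SHP-1, fell on zero fiber against control (418 ± 64.3 to 346 ± 35.3 CPM, -0.29 ± 0.07, adjusted p = 0.0276). Inpp5d, the phosphatase recruited by Fcgr2b, was called in 0 of the 17 comparisons.

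Of the actin and phagocytic cup list (16 genes, 15 tested), 3 were called once each, in comparisons that called 2.19%, 1.68% and 4.52% of all genes in the order given. Cfl1, the actin-severing protein cofilin, rose on HAMSAB against zero fiber in WT mice (291 ± 40.7 to 446 ± 76.0 CPM, 0.68 ± 0.19, edgeR adjusted p = 0.0403). Actr3, a subunit of the Arp complex that branches actin, was higher in AD than WT mice on HAMSAB (123 ± 7.49 against 103 ± 4.43 CPM, 0.26 ± 0.07, edgeR adjusted p = 0.042). Was, the activator of that complex, fell on HAMSAB against control over both genotypes (96.2 ± 16.3 to 79.3 ± 7.96 CPM, -0.27 ± 0.06, adjusted p = 0.0102). Fgr, Syk, Was and the Cbl difference over both genotypes kept their call in each of 32 fits with 1 library removed. The others were less firm. Cbl in WT mice was called in 10 of 16 such fits (highest adjusted p = 0.0970, without HAMSAB_WT_F replicate 1), Ptpn6 in 23 of 30 (0.104, without zero_fiber_WT_M replicate 2), Cfl1 in 4 of 14 (0.249, without zero_fiber_WT_M replicate 2) and Actr3 in 6 of 16 (0.0962, without HAMSAB_AD_F replicate 4). A term for the title series ended the calls of Cbl in WT mice (edgeR adjusted p = 0.0589), Ptpn6 (0.0649) and Actr3 (0.0890), as did fitting only the libraries compared (0.0787, 0.0666 and 0.0662), and Actr3 was not called without the filter on low counts (0.501).

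Transcripts of the ligand were scarce. Of 11 immunoglobulin chain genes 2 were tested, and the IgG heavy chains Ighg1, Ighg2c and Ighg3 and the IgA heavy chain Igha were at 0 in all libraries. Ighg2b, another IgG heavy chain, had reads in 13 libraries (0.136 CPM on average). Ighm, the mu heavy chain, averaged 330 CPM and rose from 286 ± 52.8 on zero fiber to 377 ± 75 CPM on HAMSAB over both genotypes (0.39 ± 0.10, SE; adjusted p = 0.0346), whereas the kappa chain Igkc averaged 0.278 CPM. Ighm was not called without the 2 doubted libraries, and it was called in 17 of 30 fits that left out 1 library (highest adjusted p = 0.241, without zero_fiber_WT_M replicate 2).

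Interferon-gamma is a known inducer of Fcgr1 and Fcgr4, so 10 genes it induces (9 tested) were set beside them. On HAMSAB against zero fiber, over both genotypes, all 9 were higher at a median of 0.42, against 0.01 over all tested genes. The calls, in a comparison that called 1.02% of all genes, included Igtp (0.42 ± 0.10, SE; edgeR adjusted p = 0.0234) and Cd274 (0.87 ± 0.23; 0.0495). Leaving out 1 library kept the call of Igtp in 28 of 30 fits and of Cd274 in 8, and without zero_fiber_WT_M replicate 2 the adjusted p were 0.151 and 0.237. Cd274 was called in 1 of 7 other settings (adjusted p 0.0506 to 0.0775 in those that did not call it). In that comparison Fcgr4 was at 0.52 and Fcgr1 at 0.05. On HAMSAB against control the 9 had a median of 0.16, against 0.00 over all tested genes. Of the 9, 0 were called there, where 4.52% of all genes were, and Fcgr4 was at 0.48 and Fcgr1 at -0.21. The comparisons share their HAMSAB libraries.

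Other Fc and Fc-like receptors were mostly not expressed. Of 11 genes 3 were tested: Fcrls, a microglial Fc receptor-like gene of unknown ligand, at 2248 to 8493 CPM, Fcrl1 at 22.8 to 84.0 CPM and Trim21, the cytosolic antibody receptor, at 7.83 to 30.9 CPM. None of the 3 was called in any of the 17 comparisons by edgeR. Fcer1a, the IgE-binding chain that also uses Fcer1g, and the polymeric immunoglobulin receptor genes Pigr and Fcamr were at 0 in all 46 libraries. Of 9 receptors that pair with Fcer1g, only Lilra5 was tested (7.44 CPM on average), and it was called in 0 comparisons, while Ncr1 and Pira2 were at 0 in all libraries. With a total of 52114 to 6950429 counts, a gene at 0 may still lie under 3 counts per library.

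The block on chromosome 1 was read with its neighbours, 71 other tested genes with a start within 5 Mb. On HAMSAB against control in AD mice 3 of the 71 were called (4.23%, against 0.0743% of all genes), on either side of the receptors. These 3 genes were already known as called on this chromosome from earlier results of these data, so their excess is not independent support. Of the 17 comparisons, HAMSAB against control in AD mice had the largest excess over all genes. In the others the share ran from 0%, in 8 comparisons, to 7.04% for HAMSAB against control over both genotypes (4.52% of all genes), and was 2.82% for HAMSAB against zero fiber in WT mice (2.19% of all genes). Slamf8, a SLAM family receptor of macrophages 1.49 Mb from the centre of the block, averaged 33.4 against 13.1 CPM, and Olfml2b, 0.45 Mb on the other side, 24 against 42.2 CPM. The third, Ifi202b, an interferon-inducible gene known to differ between inbred mouse strains, lies 2.87 Mb away. It had 0 reads in all 8 control AD libraries, so no fold change is given. In fits that left out 1 library, Slamf8 was called in 14 of 16, Olfml2b in 9 and Ifi202b in 10 (adjusted p up to 0.0984 for Slamf8 and Olfml2b, without control_AD_F replicate 2, and up to 0.104 for Ifi202b, without control_AD_M replicate 1). Olfml2b was not called with a term for the title series (edgeR adjusted p = 0.0506). Ifi202b was not called with DESeq2, with voom (adjusted p = 0.101) or when only the libraries compared were fitted (edgeR adjusted p = 0.0552). Fcgr2b, Fcgr3, Fcgr4 and Fcer1g, between these genes, were not called.

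Within HAMSAB AD, the libraries of high Slamf8 were also the ones with Ifi202b reads and low Olfml2b. Slamf8 was 41 to 49.1 CPM in 5 libraries (M replicates 1 and 2, F replicates 1, 2 and 4) and 12 to 18.7 CPM in the others (M replicates 3 and 4, F replicate 3). Ifi202b was 1.53 to 7.75 CPM in the same 5 and 0 in the others, and Olfml2b 18 to 19.4 against 32.2 to 33.5 CPM. HAMSAB_WT_F replicate 4 had the same pattern (Slamf8 46.6, Ifi202b 1.11 and Olfml2b 18.9 CPM). Their part in the levels of the receptors was not tested.

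**Figure D5:**
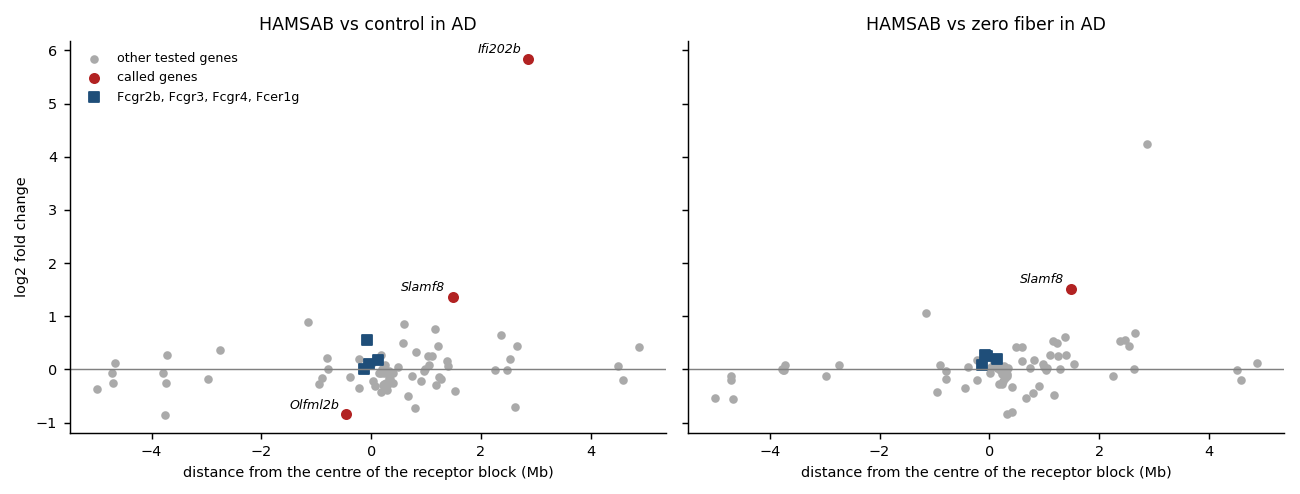
Log2 fold change of the tested chromosome 1 genes by distance from the centre of the receptor block (Mb), for HAMSAB against control (left) and against zero fiber (right) in AD mice. The called neighbours are named. The 4 receptor genes (squares) were not called, and on the left Fcgr4 stood above 0 and highest of the 4. The value of Ifi202b is a fitted one against a group with 0 reads and no measure of size.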

How the data were processed

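RNA-seq counts of mouse microglia were analysed in 46 libraries. RNA was extracted with a column micro kit and made into standard Illumina libraries, per the labels' protocols. The authors deposited 1 table of raw counts per gene symbol, made with STAR 2.5.2b, featureCounts 1.5.2 and build GRCm38 (mm10), per the submitters' processing notes. The annotation, the strand setting and the handling of multimapping reads: not given in the sources used here.

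Counts were fitted with edgeR 4.0.16 (R 4.3.3; quasi-likelihood F test, TMM factors 0.918 to 1.25, filterByExpr) in 1 model of 12 groups, with 17 contrasts and Benjamini-Hochberg adjustment over 12121 of 54134 genes; 22686 genes had no count. Alternatives were DESeq2 1.42.0, limma 3.58.1 voom, no filter, a term for the title series (23 titles numbered below 2900, 22 at or above, 1 numbered 000), fewer libraries and plain totals. Ratios had 1 added to each count. The scripts were tested on simulated data. Named genes were all 6 members, called genes of the lists (with some not reported here), called neighbours within 5 Mb and the 3 genes most like each member. The members, the lists and the neighbours to be named were chosen with earlier results of these data known. Cell markers were those of microglia, perivascular macrophages, monocytes, neutrophils, B cells, NK and T cells, endothelium, astrocytes, oligodendrocytes, neurons and erythroid cells.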

Additional observations from a re-analysis of the deposited data

Results flagged for a closer look

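Of 66 sets of 6 to 8 libraries checked for a library far from its group, 7 held one by Dixon's criterion, which chance alone meets in about 1 of 20 sets. Fcer1g was 788 CPM in zero_fiber_AD_M replicate 2 (1426 to 1871 CPM in the others of its group) and 1282 CPM in HAMSAB_AD_M replicate 2 (1741 to 2099 CPM in the others). The log2 ratio of Fcgr1 over Fcgr2b was -0.40 in HAMSAB_AD_F replicate 1 (0.16 to 0.65 in the others). In zero_fiber_AD_M replicate 2, the library of 52114 counts, the log2 ratio of Fcgr3 over Fcgr2b was 1.52 (1.97 to 2.31 in the others) and that of the 3 activating receptors over Fcgr2b was 1.93 (2.41 to 2.67). The log2 ratio of Fcgr4 over Fcgr2b was -4.43 in HAMSAB_WT_F replicate 4 (-3.78 to -3.44 in the others) and -5.10 in control_AD_F replicate 3 (-4.48 to -3.96).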

How the results depend on the processing

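Over the 17 comparisons, 702 member values were refitted under other settings, of which 695 were counted as kept. A value not called in either fit was counted as kept when it moved by less than its SE, whatever its sign. Of the rest, 1 moved further and reversed, 2 moved further in the same direction and 4 became called. Fcer1g on HAMSAB against control in WT mice reversed to 0.040 with a term for the title series. Without the filter on low counts the number of members called was 1, Fcgr4, for HAMSAB against zero fiber in WT mice (0.77, adjusted p = 0.0111) and over both genotypes (0.53, 0.0102) and for HAMSAB against control over both genotypes (0.47, 0.00671); fitting only the libraries compared gave 1 for the last (adjusted p = 0.0370). Leaving out 1 library gave 0 to 1 members called for HAMSAB against zero fiber in WT mice and for HAMSAB against control over both genotypes, and the cause was not tested. No paired analysis was possible because the replicate numbers were given in accession order. The small count of Fcgr4 (median 38 reads) limits its precision. Over all tested genes, the number called varied more than that of the members. For HAMSAB against zero fiber it was 29 in AD mice, 265 in WT mice and 124 over both genotypes, and 23 to 204, 250 to 505 and 99 to 464 under the other settings. For HAMSAB against control it was 9, 34 and 548, with 9 to 357, 1 to 433 and 351 to 982. For zero fiber against control it was 7, 1 and 44, with 0 to 269, 1 to 183 and 33 to 334. For AD against WT mice it was 1 on zero fiber, 0 on control, 204 on HAMSAB and 2 over the diets, with 0 to 93, 0 to 149, 163 to 464 and 0 to 188. For females against males it was 15, with 12 to 169, and for the interactions 131, 0 and 0, with 127 to 374, 0 to 66 and 0 to 207. Leaving out 1 library gave 1 to 346 for HAMSAB against zero fiber in WT mice, 93 to 281 for AD against WT mice on HAMSAB and 297 to 914 for HAMSAB against control over both genotypes.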

Other observations

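Summed markers of the other cell types varied between libraries. Over the 46 libraries, neutrophil markers (6 genes) summed to 0 to 20.2 CPM, NK and T cell markers (6 genes) to 0 to 2.34 CPM and neuronal markers (4 genes) to 2.30 to 28.2 CPM. Endothelial markers (6 genes) summed to 0 to 120.2 CPM, with group medians from 39.4 CPM (HAMSAB WT) to 91.9 CPM (control AD). Pecam1 made up most of that sum, at 61.3 CPM on average, and the others averaged 0.0241 (Cldn5) to 2.04 CPM (Cdh5). Astrocyte markers (4 genes) summed to 147 to 366 CPM and oligodendrocyte markers (4 genes) to 73.3 to 160.3 CPM. Nearly all of the astrocyte sum was Slc1a3, at 248 CPM on average, against 0.233 CPM for Gfap, 1.22 CPM for Aqp4 and 1.49 CPM for Gja1. B cell markers (5 genes) summed to 43.1 to 81.2 CPM, with Cd79b, a B cell receptor chain, at a mean of 59 CPM. Among these lists edgeR called Ngp, a neutrophil granule gene, lower on HAMSAB than on zero fiber over both genotypes (0.158 ± 0.498 against 1.67 ± 2.42 CPM, SD, n = 16 and 14; adjusted p = 0.0436), and Syt1, a synaptic vesicle gene, higher than control on both HAMSAB (4.05 ± 4.07 against 1.11 ± 0.768 CPM, adjusted p = 0.0125) and zero fiber (3.803 ± 4.23 CPM, adjusted p = 0.0232). Their part in the receptor levels was not tested.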
